A study of Mus musculus with 12 samples.

Results

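The aminoacyl-tRNA synthetases were examined as 2 sets of genes, the 20 that encode cytosolic enzymes or their subunits and the 16 that encode mitochondrial enzymes. Members were chosen by gene symbol, and the symbols of the mitochondrial forms end in 2. All 36 were found, among 23235 entries for fetal liver and 24421 entries for mouse embryonic fibroblasts (MEFs), of which 21704 symbols were shared. RNA sequencing compared wild-type (WT) mice with mice homozygous for the G2A allele of Rpt2 (Rpt2G2A/G2A). Rpt2, encoded by Psmc1, is an ATPase of the proteasome's regulatory particle, and the G2A allele replaces the glycine that carries its N-myristoyl lipid anchor. The liver groups were untreated WT and G2A E12.5 embryos, 3 livers each, described in the labels as pairs of littermates. The MEF groups were untreated immortalized WT and G2A cells, 3 samples each by the labels. Whether the MEF samples came from separate lines, clones or cultures is not given in the sources used here, so their p-values measure only the spread between these samples. The third G2A MEF sample was not analysed here, which left 11 libraries, 6 from liver and 5 from MEFs.

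Aminoacyl-tRNA synthetases join each amino acid to its matching tRNA, which makes them the first step of translation. Cytosolic and mitochondrial ribosomes draw on separate enzymes for most amino acids, all encoded in the nucleus, while the genes Gars and Kars each encode both forms. Several cytosolic enzymes sit in the multisynthetase complex, which is held together by the scaffold proteins Aimp1, Aimp2 and Eef1e1. Many cytosolic synthetase genes are known targets of Atf4, the transcription factor of the integrated stress response, which binds composite C/EBP-ATF elements when amino acids are short.

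The promoters below are shown because they hold letters that match that element. RefSeq promoter windows of the GRCm38.p6 assembly, each from 250 bases before to 50 bases after a gene's start, were matched for 13 of the 20 cytosolic and 14 of the 16 mitochondrial members. The composite element was searched as TGATGNAA, or TTNCATCA on the other strand, where N is any base. It was found in the windows of 5 of 13 cytosolic members (38.5%) and of 0 of 14 mitochondrial members. Among 28 matched genes of an amino acid and integrated stress response list, 9 genes (32.1%) held it, and 3.97% of 32851 windows of the same length did. A listed gene was counted if any of its windows held the element, while the share of all windows counts each window alone. These shares are therefore in unlike units. A match is a description of letters, not of binding. The stretches below run in the direction of the gene, with the element in capitals, and their positions are exact matches in NCBIM37 (mm9). Aars lies at chr8:113557605-113557761 (plus strand), Gars at chr6:54987940-54987997 (plus), Iars at chr13:49777481-49777518 (plus), Tars at chr15:11329396-11329453 (minus) and Yars at chr4:128867125-128867166 (plus). Asns (chr6:7643200-7643257, minus) and Chac1 (chr2:119176760-119176817, plus), from the stress response list, are shown beside them for comparison.
Aars: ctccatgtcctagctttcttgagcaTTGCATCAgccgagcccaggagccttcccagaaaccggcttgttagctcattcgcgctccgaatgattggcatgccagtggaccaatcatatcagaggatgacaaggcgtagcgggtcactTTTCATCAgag
Gars: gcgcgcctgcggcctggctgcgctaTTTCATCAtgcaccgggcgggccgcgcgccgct
Iars: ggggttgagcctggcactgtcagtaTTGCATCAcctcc
Tars: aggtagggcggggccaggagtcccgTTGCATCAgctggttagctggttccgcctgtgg
Yars: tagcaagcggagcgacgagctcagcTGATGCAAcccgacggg
Asns: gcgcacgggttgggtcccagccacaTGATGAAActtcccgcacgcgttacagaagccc
Chac1: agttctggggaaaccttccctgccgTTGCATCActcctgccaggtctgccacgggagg

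The Aars stretch held 2 elements and the others 1 each. The E-box CACGTG, which reads the same on both strands, was found for 4 of 13 cytosolic members and 1 of 14 mitochondrial members, counted in the same way, and in 7.15% of all windows. The E-box is a site of Myc and related factors. The liver and MEF values of the 5 members with the composite element are given with those of the stress response genes.

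Liver values were FPKM (mapped fragments scaled by transcript length and library size). Each liver column summed to between 792987 and 840762, which leaves the depth in reads unknown. MEF values were whole reads divided by a size factor per library, with 36415586 to 37695116 recovered reads. In liver, G2A liver 3 had a first principal component score of -7.91 (37.9% of variance). This was nearer to the WT livers (-23.3 to -13.3) than to G2A livers 1 and 2 (30.6 and 34.9). On the second component (22.0%) G2A liver 3 lay at -36.3, apart from all other livers (-1.72 to 23.7). In MEFs, WT MEF 3 lay at 72.5 on the first component (73.4%), beside the G2A MEFs (51.5 and 55.2). It lay far from WT MEFs 1 and 2 (-87.2 and -92.0). On the second component (17.9%) WT MEF 3 lay at 59.5, away from the G2A MEFs (-35.1 and -33.0). Results below are therefore also given without G2A liver 3 or WT MEF 3 where that changed a call. Markers of hepatoblasts and erythroid cells were present in every liver library. In MEFs, markers of fibroblasts summed to between 351037 and 1021040 normalized reads. Erythroid markers summed to 558 to 628 in WT and 564 to 618 in G2A MEFs. Endothelial markers summed to 206 to 882 in WT and 217 to 254 in G2A MEFs. The erythroid genes Gata1, Slc4a1 and Epb4.2 and the endothelial genes Tie1 and Emcn were listed at 0. Other genes of these lists, such as Ank1 (454 to 589 normalized reads) and Kdr (134 to 398), were not.

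Cytosolic synthetase mRNAs were more abundant than their mitochondrial counterparts in both tissues. In WT liver the cytosolic levels ran from 30.4 FPKM for Cars, the cysteine enzyme, to 139 for Kars, the lysine enzyme, with a median of 70.5. Mitochondrial levels ran from 3.71 FPKM for Wars2, the tryptophan enzyme, to 37.9 for Iars2, the isoleucine enzyme, with a median of 12.3. Of the 20 cytosolic members, 18 lay above the highest mitochondrial member, and Cars and Lars did not. Over 17 pairs with the same amino acid, in which Fars2 was set against both Farsa and Farsb and Eprs against both Ears2 and Pars2, the cytosolic to mitochondrial ratio of FPKM had a median of 6.18. It ranged from 1.71 for Iars and Iars2 to 22.6 for Nars and Nars2. Among the 3 WT livers the coefficient of variation of a member was at most 8.79% for cytosolic and 11.6% for mitochondrial members.

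**Figure D1:**
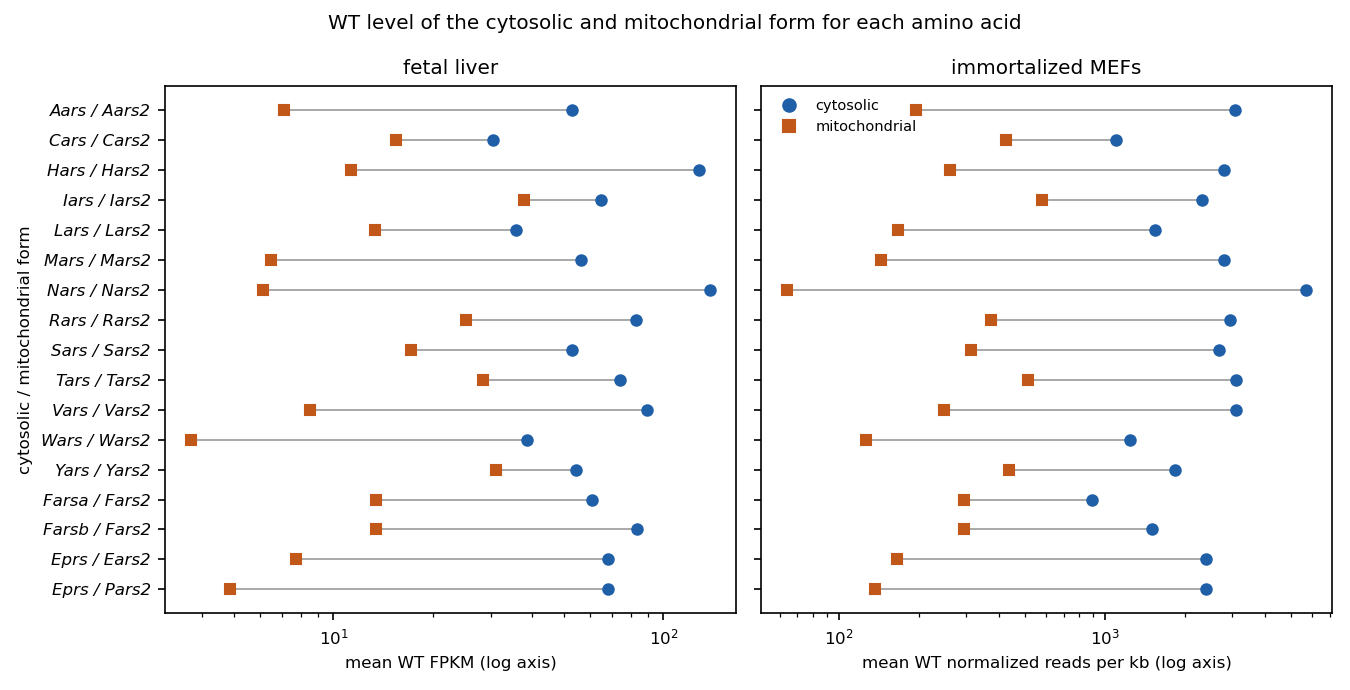
Mean level in WT libraries of each cytosolic synthetase and its mitochondrial partner for the same amino acid, per length and on a log axis, in liver (FPKM) and MEFs (normalized reads per kilobase). The cytosolic form is the higher of each pair, with liver ratios between 1.71 and 22.6 and MEF ratios between 2.58 and 88.8.

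In WT MEFs the cytosolic members were again the more abundant. Normalized reads were divided by the length of each gene's longest annotated protein-coding transcript, so these levels and ratios depend on that choice. Cytosolic levels ran from 890 normalized reads per kilobase for Farsa to 5685 for Nars, the asparagine enzyme, with a median of 2533. Mitochondrial levels ran from 64.0 for Nars2 to 578 for Iars2, with a median of 254. All 20 cytosolic members lay above the highest mitochondrial member. The ratio over pairs had a median of 9.20 and ranged from 2.58 for Cars and Cars2 to 88.8 for Nars and Nars2. Before division by length, mean WT levels were 14963 normalized reads for Nars and 242 for Nars2. Liver and MEF levels are in different units and were not compared.

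The first comparison asked which synthetase mRNAs had other levels in G2A than in WT liver. No member passed the threshold of an adjusted p under 0.05 in limma's test, beside 0.0155% of 12938 genes called higher and 0.00773% called lower. At an unadjusted p under 0.05, 7 members (19.4%) were lower and 1 (2.78%) was higher in G2A liver, against 12.4% and 9.07% of all genes. The log2 fold change was below 0 for 16 of 20 cytosolic and 15 of 16 mitochondrial members, against 47.3% of all genes tested. Medians were -0.085 for the cytosolic and -0.13 for the mitochondrial set, and 0.014 over all genes. Leaving out 1 library moved the cytosolic median to between -0.12 (without WT liver 1) and -0.045 (without WT liver 2; -0.047 without G2A liver 2), and the mitochondrial median to between -0.17 (without WT liver 1) and -0.084 (without WT liver 2). The G2A and WT livers did not overlap for 11 members with lower values (30.6% of members, against 15.7% of genes) and for 2 with higher values (5.56% against 11.8%). Every difference was small, from -0.42 to 0.18, and the 95% intervals of all members lay between -0.61 and 0.35. All log2 fold changes are on the log2(value + 1) scale, which understates changes of genes at low values.

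**Figure D2:**
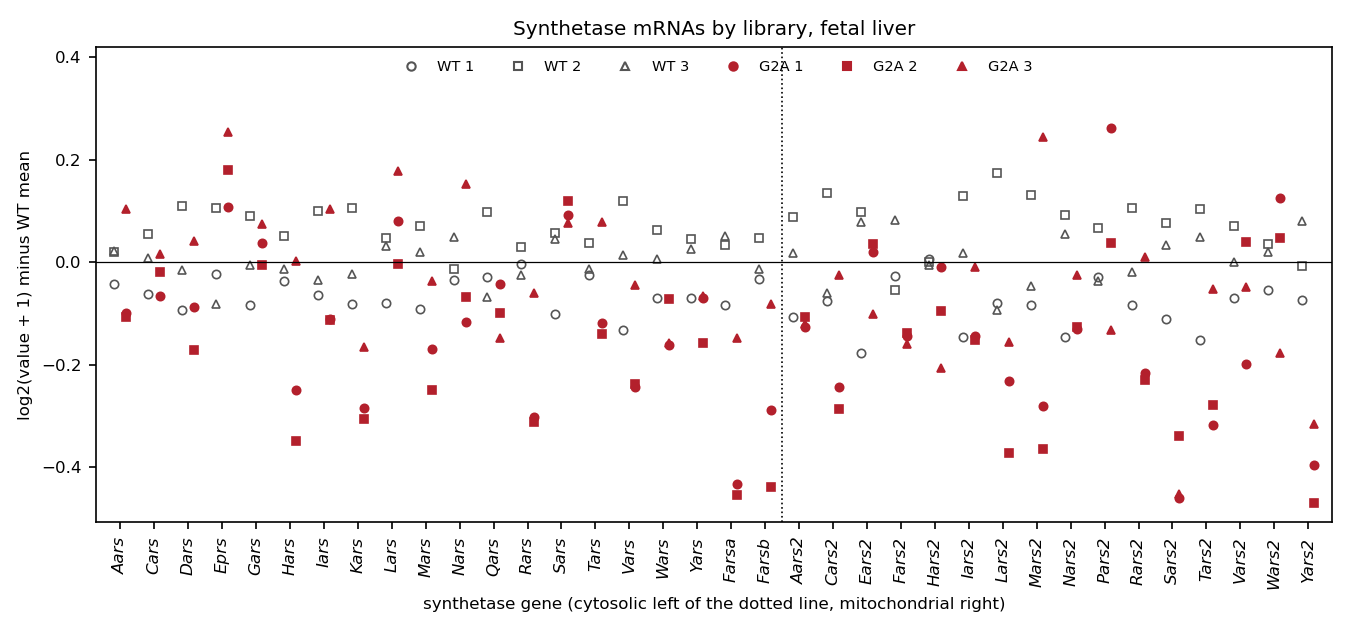
Level of each of the 36 synthetases in the 6 liver libraries, as log2(FPKM + 1) minus the mean of the WT livers, with 1 point per library. All 3 G2A livers (filled) lie below the WT livers for 11 members and above them for Eprs and Sars, and G2A liver 3 (triangle) lies nearer to the WT livers for Farsa, Hars, Rars and Farsb.

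Among the cytosolic enzymes of the multisynthetase complex, Kars and Rars had lower and Eprs higher values in all 3 G2A livers, none of them past the adjusted threshold. Kars, the lysine enzyme (chr8:114517340-114535223, NCBIM37), was at 131, 149 and 137 FPKM in WT livers 1 to 3, against 114, 112 and 124 in G2A livers 1 to 3. All 3 G2A livers lay below the WT livers, with a log2 fold change of -0.25 (SE 0.07, adjusted p = 0.135 by limma). Rars, the arginine enzyme (chr11:35621883-35648008), was at 82.5, 84.6 and 81.3 FPKM in WT livers, against 66.9, 66.5 and 79.3 in G2A livers. The groups did not overlap, and G2A liver 3 lay close to the WT range (-0.23, SE 0.08, adjusted p = 0.183). Eprs, which charges both glutamate and proline (chr1:187186974-187252234), was at 66.8, 73.1 and 64.1 FPKM in WT livers, against 73.2, 77.1 and 81.2 in G2A livers. Here every G2A liver lay above every WT liver, G2A liver 1 only just (0.18, SE 0.07, adjusted p = 0.214). Mars, the methionine enzyme, was at 52.7, 59.1 and 57.1 FPKM in WT livers, against 49.9, 47.2 and 54.8 in G2A livers, with overlap (-0.15). Mars shares exon bases with Ddit3 on the opposite strand, and whether counting used strand is not given in the sources used here. The other complex members Dars, Iars, Lars and Qars had log2 fold changes of -0.072, -0.040, 0.084 and -0.097, all with overlapping groups. Over the 8 enzymes of the complex the median was -0.085, with 6 below 0.

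Outside the complex, both subunits of the phenylalanine enzyme had lower values in all 3 G2A livers, short of the threshold. Farsa, the alpha subunit (chr8:87380888-87393156), was at 57.4, 62.3 and 63.1 FPKM in WT livers, against 44.8, 44.1 and 54.8 in G2A livers. Farsb, the beta subunit (chr1:78414533-78485434), was at 81.0, 85.6 and 82.1 FPKM in WT livers, against 67.7, 60.8 and 78.2 in G2A livers. Neither gene's groups overlapped, and for both G2A liver 3 was the highest of the G2A livers. The log2 fold changes were -0.35 for Farsa (SE 0.10, adjusted p = 0.135 by limma) and -0.27 for Farsb (SE 0.10, adjusted p = 0.183). Farsb shares exon bases with Sgpp2 on the opposite strand. Hars, the histidine enzyme, was at 125, 132 and 127 FPKM in WT livers, against 107, 100.1 and 128 in G2A livers (-0.20). Its groups overlapped through G2A liver 3. Wars, the tryptophan enzyme, was at 36.8, 40.4 and 38.8 FPKM in WT livers, against 34.4, 36.7 and 34.5 in G2A livers, without overlap but with G2A liver 2 close to WT liver 1 (-0.13). Vars, the valine enzyme, was at 81.0, 96.6 and 89.7 FPKM in WT livers, against 74.9, 75.2 and 86.1 in G2A livers (-0.18). Yars, the tyrosine enzyme, was at 51.6, 55.9 and 55.2 FPKM in WT livers, against 51.6, 48.5 and 51.7 in G2A livers (-0.098). Both sets of groups overlapped. The remaining Aars, Cars, Gars, Nars, Sars and Tars lay between -0.060 and 0.096, and among them the groups did not overlap only for Sars, which was higher in G2A. By structural class, 8 of 9 class I and 8 of 10 class II cytosolic members were below 0, with medians of -0.098 and -0.066.

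The mitochondrial members with the smallest p were Yars2 and Sars2. Yars2, the tyrosine enzyme (chr16:16303058-16309733), was at 29.6, 31.0 and 33.0 FPKM in WT livers, against 23.5, 22.2 and 24.9 in G2A livers. Sars2, the serine enzyme (chr7:29527010-29538871), was at 15.8, 18.1 and 17.6 FPKM in WT livers, against 12.2, 13.3 and 12.3 in G2A livers. For both genes all 3 G2A livers, the third included, lay below all WT livers. The log2 fold change of Yars2 was -0.39 (SE 0.07, adjusted p = 0.0902 by limma) and that of Sars2 -0.42 (SE 0.08, adjusted p = 0.0914). In ratio the G2A means were 0.761 and 0.749 of WT on the log2(value + 1) scale. Lars2, the leucine enzyme (chr9:123276058-123371782), was at 12.51, 15.1 and 12.4 FPKM in WT livers, against 11.2, 10.03 and 11.8 in G2A livers (-0.25, SE 0.10, adjusted p = 0.228). Fars2, the phenylalanine enzyme, was at 13.1, 12.9 and 14.2 FPKM in WT livers, against 12.0, 12.1 and 11.9 in G2A livers (-0.15). Neither of these overlapped between the groups. Tars2, the threonine enzyme, was at 25.3, 30.4 and 29.3 FPKM in WT livers, against 22.5, 23.1 and 27.2 in G2A livers (-0.22). Cars2, the cysteine enzyme, was at 14.6, 17.0 and 14.8 FPKM in WT livers, against 12.9, 12.48 and 15.1 in G2A livers (-0.19). Both overlapped through G2A liver 3. Of the other 10 mitochondrial members, Aars2 (-0.12) and Hars2 (-0.10) did not overlap between the groups and were lower in G2A. Hars2 shares exon bases with Hars, its neighbour on the opposite strand. Pars2, the proline enzyme, had the only log2 fold change above 0 in the mitochondrial set (0.055), with overlap.

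Without G2A liver 3, 7 members passed the threshold, all lower in G2A liver, while 12.4% of genes (1604) were then called higher and 12% (1548) lower. They were Farsa (-0.44), Farsb (-0.36), Rars (-0.31), Hars (-0.30), Kars (-0.30), Yars2 (-0.43) and Sars2 (-0.40). With library weights estimated by limma, an alternative chosen after seeing the data, 17 members passed, beside 26.1% of genes higher and 20.7% lower.

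Set against the WT mean, the cytosolic members averaged -0.13, -0.15 and 0.0083 in G2A livers 1 to 3, and the mitochondrial members -0.16, -0.18 and -0.11. WT livers ranged from -0.062 to 0.063 for the cytosolic and from -0.088 to 0.078 for the mitochondrial set. Without allowance for shifts of all genes, G2A liver 3 lay within the WT range for the cytosolic members and below it for the mitochondrial members. All genes tested averaged 0.029, -0.017 and -0.011 in WT livers and 0.068, 0.062 and -0.036 in G2A livers. The mean over all genes was thus lowest in G2A liver 3. Among WT livers it was highest in WT liver 1, which had the lowest synthetase means of that group. Whether G2A liver 3 lies below the WT range apart from these shifts was not tested. The difference between the sets, cytosolic minus mitochondrial mean log2 level, was 2.48, 2.44 and 2.44 in WT livers and 2.49, 2.48 and 2.57 in G2A livers, with overlapping groups. In 10 of 17 pairs the cytosolic member had the higher log2 fold change, and the median difference was 0.083. Under quantile normalization the cytosolic median was -0.0013 with 10 of 20 members below 0, and the mitochondrial median was -0.19 with 16 of 16 below 0. Over all genes the median was then -0.020, with 54.3% below 0. The cytosolic set thus did not lie lower than all genes under that scaling. As deposited and under median-ratio scaling (-0.095 cytosolic and -0.13 mitochondrial, against 0.0049 over all genes) both medians lay below that of all genes. Under quantile normalization only the mitochondrial median did. The counts below 0 depended on the scaling for both sets. With small RNA genes left out, 14 of 20 cytosolic and 13 of 16 mitochondrial members were below 0, beside 43.1% of all genes. The medians were then -0.059 and -0.11.

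**Figure D3:**
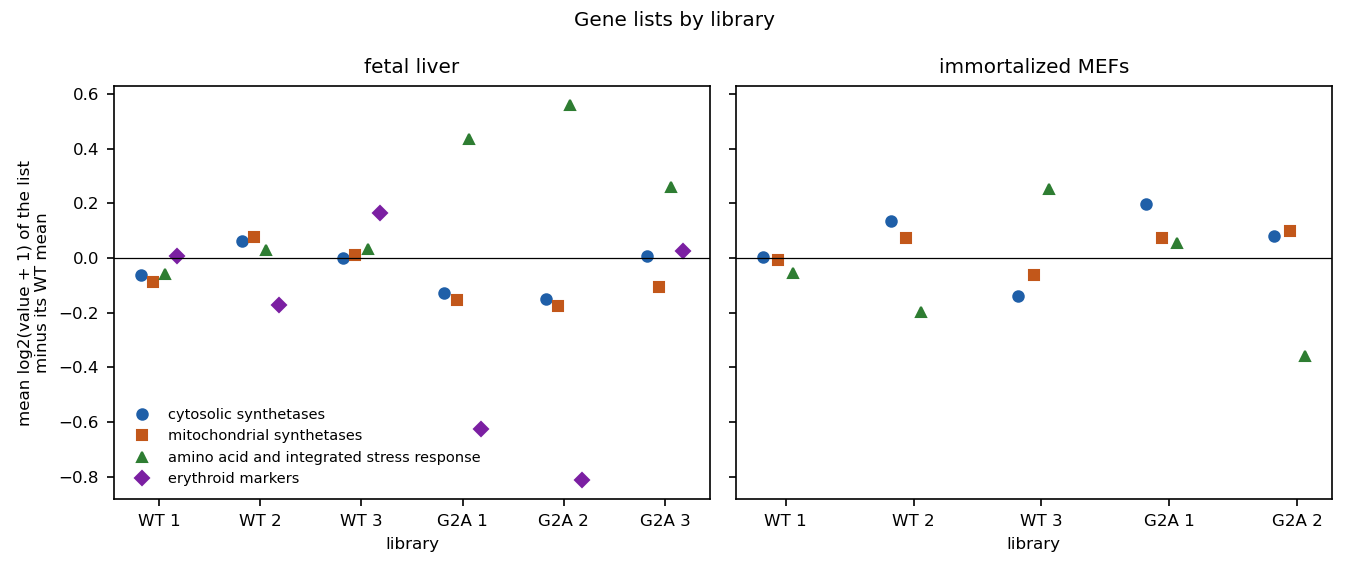
Mean log2 level of each gene list in every library minus the mean of the WT libraries of that tissue, with 1 point per library. In liver the mitochondrial synthetases of all 3 G2A livers lie below the WT libraries (-0.18 to -0.11), and the stress response list lies above (0.26 to 0.56). Shifts of all genes in a library, such as -0.036 in G2A liver 3 and 0.029 in WT liver 1, are not removed.

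Values of cell type markers also differed between these liver libraries, with 0 markers past the adjusted threshold. The 10 measured erythroid markers averaged -0.63, -0.81 and 0.026 relative to WT in G2A livers 1 to 3, and their summed level was 2560 to 3520 FPKM in WT and 1677 to 3225 in G2A livers. The 10 mesenchyme and fibroblast markers averaged 1.09, 1.44 and 0.58, with sums of 553 to 802 FPKM in WT and 1225 to 2464 in G2A livers. Medians of the log2 fold changes were -0.0011 for 10 hepatoblast, -0.096 for 8 macrophage, 0.25 for 7 endothelial, 0.066 for 5 megakaryocyte, 0.17 for 5 haematopoietic progenitor and 0.57 for 4 epithelial markers. G2A liver 3, which had the highest cytosolic synthetase mean of the G2A livers, also had the highest erythroid mean. Its hepatoblast (0.31), megakaryocyte (0.26) and progenitor (0.51) means were the highest of the G2A livers as well. Among WT livers, WT liver 2 had the highest cytosolic synthetase mean (0.063) and the lowest erythroid mean (-0.17). The part of cell composition in the synthetase values was not tested, and in whole livers fewer cells of a type and less RNA per cell cannot be told apart.

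Genes that work beside the synthetases were mostly at lower values in G2A liver, and none of them passed the adjusted threshold. At an unadjusted p under 0.05 lower values were found for 2 of 3 scaffolds, 2 of 5 other synthetases and editing proteins, 2 of 3 amidotransferase subunits, 3 of 11 mitochondrial tRNA maturation genes, 4 of 9 mitochondrial translation factors and 2 of 9 genes of cytosolic elongation, termination and tRNA export, beside 12.4% of all genes. Of the 3 scaffolds of the multisynthetase complex all were below 0 (median -0.23), and the groups did not overlap for 2, beside 15.7% of all genes with lower values and no overlap. Aimp2 was at 76.0, 78.3 and 83.2 FPKM in WT livers, against 63.0, 59.1 and 72.8 in G2A livers (-0.29, adjusted p = 0.151 by limma). Aimp1 (-0.14) and Eef1e1 (-0.23) had smaller or less separated differences. Of 5 other synthetases and editing proteins measured, all were below 0. Aarsd1, an editing protein related to the alanine enzyme, was at 40.8, 42.7 and 40.4 FPKM in WT livers, against 31.9, 32.3 and 35.7 in G2A livers (-0.31, adjusted p = 0.101). Tarsl2, a threonine enzyme-like protein, had a log2 fold change of -0.30.

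Mitochondria make glutaminyl-tRNA with an amidotransferase, and its 3 subunits were at lower values in G2A liver without overlap (median -0.22), as were 15.7% of all genes. Gatc was at 31.4, 32.6 and 31.7 FPKM in WT livers, against 25.4, 24.2 and 29.3 in G2A livers (-0.27, adjusted p = 0.144 by limma). Qrsl1 had a log2 fold change of -0.22 and Pet112l, another symbol of Gatb, of -0.13. Among 9 mitochondrial translation factors all were below 0 (median -0.16), and 5 did not overlap, beside that same 15.7%. Tufm, the mitochondrial elongation factor that delivers charged tRNA, was at 104, 118 and 108 FPKM in WT livers, against 93.3, 80.4 and 92.9 in G2A livers (-0.30, adjusted p = 0.132). Mrrf, a ribosome recycling factor, and Tsfm, the exchange factor of Tufm, had log2 fold changes of -0.21 each. Of 11 mitochondrial tRNA maturation genes 10 were below 0 (median -0.13), led by Mto1 (-0.30), Trmu (-0.27) and Pus1 (-0.26). Among 9 genes of cytosolic elongation, termination and tRNA export 5 were below 0 and 4 above (median -0.044). Eef1d (-0.36) and Eif5a (-0.33) had non-overlapping groups there, and Gspt1 was at -0.22.

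The amino acid and integrated stress response list, which includes known Atf4 targets, lay in the opposite direction to the synthetases in liver. Of 29 members tested 20 were above 0 (median 0.32), beside 52.7% of all genes, and 0 passed the adjusted threshold. At an unadjusted p under 0.05, 16 had higher values in G2A, beside 9.07% of all genes. By library the list averaged 0.43, 0.56 and 0.26 relative to WT in G2A livers 1 to 3. The mesenchyme and fibroblast markers had the same order (1.09, 1.44 and 0.58). So had the endothelial (0.31, 0.34 and 0.16) and epithelial markers (0.50, 1.26 and -0.16). In WT livers 1 to 3 the orders of the list (-0.059, 0.028 and 0.031) and of the mesenchyme markers (0.15, -0.32 and 0.17) differed. The part of cell composition in these values was not tested. Stc2, which encodes a secreted hormone-like protein, had values of 2.43, 2.40 and 2.15 FPKM in WT livers, against 7.27, 7.16 and 5.35 in G2A livers (1.18, adjusted p = 0.0811 by limma). Vldlr (1.21), a lipoprotein receptor, and Eif4ebp1 (0.50), an inhibitor of translation initiation, had adjusted p = 0.0902 each, as did Cth (0.69), which makes cysteine and was at 18.5, 15.8 and 19.54 FPKM in WT livers, against 27.1, 33.8 and 27.8 in G2A livers. Values also lay higher in all 3 G2A livers for Trib3 (1.89), a pseudokinase, Ddit3 (0.75), a transcription factor of the stress response, and Chac1 (0.98), which breaks down glutathione and whose promoter element is printed above. The amino acid synthesis genes Asns (-0.043), Psat1 (-0.086) and Phgdh (-0.088) of the same list had overlapping groups, and Atf4 itself (-0.082) lay lower in all 3 G2A livers without overlap. Cth, Trib3, Ddit3, Chac1, Asns, Psat1, Phgdh and Atf4 were named after their values were seen. The 5 synthetases with a printed promoter element had log2 fold changes of -0.034 for Aars, 0.035 for Gars, -0.040 for Iars, -0.060 for Tars and -0.098 for Yars.

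Aars, the alanine enzyme with 2 elements, was at 51.3, 53.7 and 53.7 FPKM in WT livers, against 49.3, 49.0 and 56.9 in G2A livers, with overlap. Gars, the glycine enzyme, was at 117, 133 and 124 FPKM in WT livers, against 128, 124 and 131 in G2A livers, with overlap as well. The 95% intervals of the log2 fold change were -0.21 to 0.14 for Aars and -0.11 to 0.18 for Gars.

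The second comparison asked the same of immortalized MEFs. No member and no gene passed limma's adjusted threshold (0% of 13241 genes in either direction), while 6.9% of genes were higher and 7.48% lower at an unadjusted p under 0.05. On the recovered reads edgeR called 0 genes, and DESeq2 called 3.1% of 12626 genes higher and 5.1% lower, among them Lars2, Qars and Rars as higher. By limma 7 members (19.4%) had an unadjusted p under 0.05, all with higher values in G2A MEFs. Log2 fold changes were above 0 for 14 of 20 cytosolic members (median 0.10) and 10 of 16 mitochondrial members (median 0.080), against 51.6% of all genes and a median of 0.015. The remaining 6 and 6 members were below 0, against 48.4% of all genes. The groups did not overlap for 9 members with higher values (25% of members, against 18.9% of genes) and 3 with lower values (8.33% against 18%). The differences ran from -0.27 to 0.51, and the 95% intervals of all members lay between -0.78 and 1.07.

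**Figure D4:**
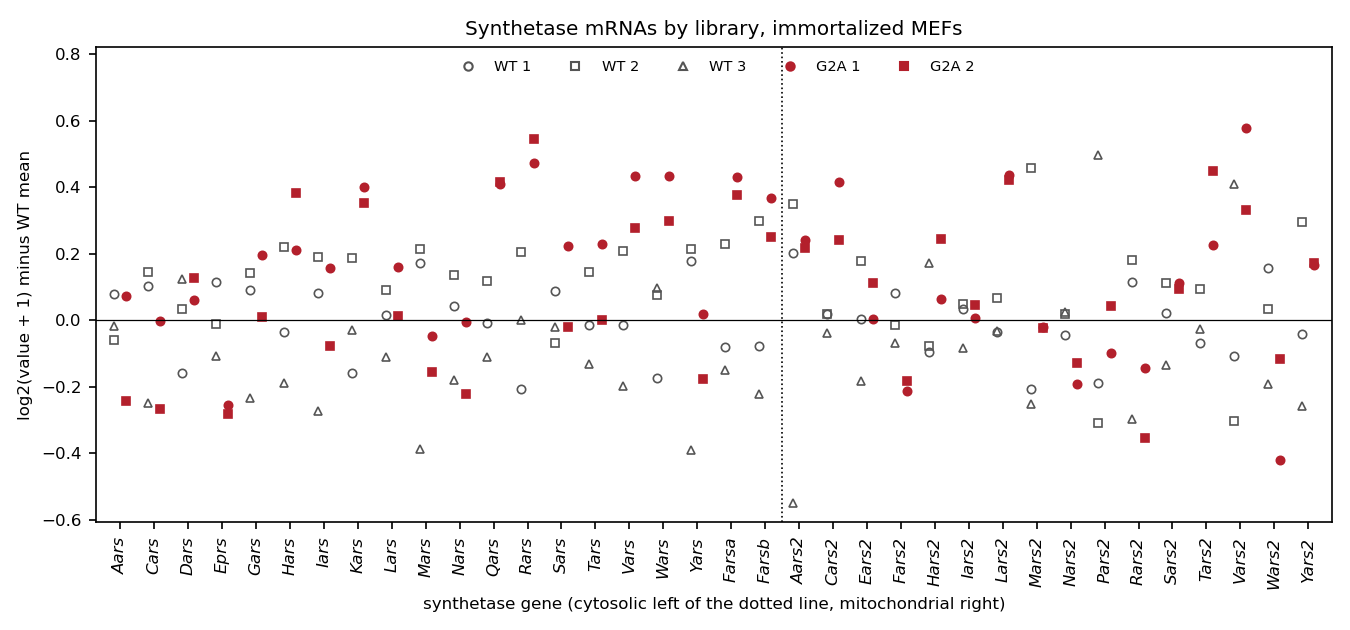
Level of each of the 36 synthetases in the 5 MEF libraries, as log2(normalized reads + 1) minus the mean of the WT MEFs, with 1 point per library. Both G2A MEFs lie above all WT MEFs for 9 members and below them for Eprs, Fars2 and Nars2.

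In the multisynthetase complex, Rars, Qars and Kars had higher values in G2A MEFs and Eprs lower ones. Rars was at 5366, 7134 and 6184 normalized reads in WT MEFs 1 to 3 and at 8579 and 9025 in G2A MEFs 1 and 2. Qars, the glutamine enzyme (chr9:108410336-108418272), was at 3998, 4368 and 3724 in WT and at 5339 and 5361 in G2A MEFs. The G2A values of both lay above every WT value, with log2 fold changes of 0.51 for Rars (SE 0.15, adjusted p = 0.291 by limma) and 0.41 for Qars (SE 0.11, adjusted p = 0.279). Kars was at 9913, 12599 and 10828 normalized reads in WT and at 14592 and 14128 in G2A MEFs (0.38, SE 0.14, adjusted p = 0.330). Eprs was at 12514, 11464 and 10721 in WT and at 9678 and 9494 in G2A MEFs (-0.27, SE 0.12, adjusted p = 0.370). Neither overlapped between the groups. Dars (0.094), Iars (0.039), Lars (0.086) and Mars (-0.10) overlapped, and over the 8 enzymes of the complex 6 were above 0 (median 0.090).

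Outside the complex, Farsa was at 2779, 3447 and 2650 normalized reads in WT and at 3964 and 3818 in G2A MEFs (0.40, SE 0.15, adjusted p = 0.327 by limma). Wars was at 3089, 3675 and 3732 in WT and at 4712 and 4292 in G2A MEFs (0.37, SE 0.13, adjusted p = 0.319). Vars was at 12674, 14794 and 11163 in WT and at 17298 and 15520 in G2A MEFs (0.36). None of the 3 overlapped between the groups. Hars was at 5376, 6415 and 4833 normalized reads in WT and at 6371 and 7176 in G2A MEFs (0.30). Farsb was at 3004, 3901 and 2723 in WT and at 4088 and 3770 in G2A MEFs (0.31). Tars was at 8102, 9055 and 7475 in WT and at 9590 and 8195 in G2A MEFs (0.12). These 3 overlapped, in each case through WT MEF 2. The remaining cytosolic members Aars, Cars, Gars, Nars, Sars and Yars lay between -0.13 and 0.10 with overlapping groups.

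Among mitochondrial members in MEFs, Lars2, Tars2 and Cars2 were at higher values in both G2A libraries. Lars2 was at 632, 677 and 632 normalized reads in WT and at 876 and 867 in G2A MEFs (0.43, SE 0.14, adjusted p = 0.303 by limma). Tars2 was at 1629, 1824 and 1678 in WT and at 1997 and 2331 in G2A MEFs (0.34, SE 0.13, adjusted p = 0.330). Cars2 was at 792, 793 and 762 in WT and at 1043 and 925 in G2A MEFs (0.33). All 3 were without overlap. Vars2, the valine enzyme, was at 994, 870 and 1424 in WT and at 1601 and 1349 in G2A MEFs, and WT MEF 3 lay between the G2A values (0.46, SE 0.24). Wars2 was at 620, 570 and 487 in WT and at 415 and 513 in G2A MEFs (-0.27), with overlap. Fars2 was at 662, 618 and 596 in WT and at 538 and 550 in G2A MEFs (-0.20), without overlap, as was Nars2 (-0.16). The other mitochondrial members lay between -0.25 for Rars2 and 0.23 for Aars2 and overlapped. Yars2 and Sars2, which had the smallest p in liver, were at 0.17 and 0.10 here.

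Relative to the WT mean, the cytosolic members averaged 0.0021, 0.14 and -0.14 in WT MEFs 1 to 3 and 0.20 and 0.081 in G2A MEFs 1 and 2, so the groups overlapped. The mitochondrial members averaged -0.0094, 0.072 and -0.063 in WT and 0.073 and 0.098 in G2A MEFs, with WT MEF 2 and G2A MEF 1 nearly equal. Cytosolic minus mitochondrial mean log2 level was 3.31, 3.37 and 3.23 in WT and 3.43 and 3.29 in G2A MEFs, with overlap. Without WT MEF 3, Qars (0.36) and Vars2 (0.66) passed the threshold, while 11.7% of genes were called higher and 11.5% lower. The medians were then 0.071 for the cytosolic and 0.0099 for the mitochondrial members, so the mitochondrial median above 0 rested largely on that library. The cytosolic median was 0.011 without G2A MEF 1 and 0.20 without G2A MEF 2, and the mitochondrial median was 0.15 without WT MEF 2 and 0.036 without G2A MEF 2, where the lone G2A sample is assumed to vary like the WT samples. With library weights 17 members passed, beside 23.8% of genes higher and 22.5% lower.

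Lists of genes that work beside the synthetases had medians above 0 in MEFs, with no gene past the adjusted threshold and 6 at an unadjusted p under 0.05, all with higher values in G2A, beside 6.9% of all genes. These were 0.21 for the 3 scaffolds, 0.13 for the 3 amidotransferase subunits, 0.25 for 11 mitochondrial tRNA maturation genes, 0.21 for 9 mitochondrial translation factors and 0.32 for 9 genes of cytosolic elongation. Aarsd1 was at 0.51, Gatb (Pet112l in liver) at 0.63, Pus1 at 0.57 and Eif5a at 0.59. Each had higher values in both G2A MEFs than in any WT MEF. The stress response list had a median of -0.16 over 30 genes, with 18 below 0 and 4 at an unadjusted p under 0.05, all with lower values in G2A, beside 7.48% of all genes. Trib3 (-1.49), Atf5 (-1.25) and Ddit3 (-1.002) led it. Relative to the WT mean, the list averaged -0.054, -0.20 and 0.25 in WT MEFs 1 to 3. It averaged 0.056 and -0.36 in G2A MEFs 1 and 2, so the groups overlapped. The 5 synthetases with a printed element lay at -0.085 for Aars, 0.10 for Gars, 0.039 for Iars, 0.12 for Tars and -0.078 for Yars. Mesenchyme and fibroblast markers summed to 614566 to 1021040 normalized reads in WT and to 351037 to 361163 in G2A MEFs, and their part in these values was not tested. Medians of the other marker lists over the genes tested were 0.36 for 3 erythroid, -0.60 for 7 hepatoblast, 1.29 for 2 macrophage, -0.78 for 4 endothelial, 0.11 for 3 megakaryocyte, 1.10 for 3 progenitor and 1.30 for 4 epithelial genes, all with lower summed levels than the fibroblast markers. Hepatoblast genes cut across genotype. Alb was at 305, 330 and 0 normalized reads in WT MEFs 1 to 3 and at 275 and 0 in G2A MEFs 1 and 2. Fga, Trf, Ttr and Apoa1 were likewise lowest in WT MEF 3 and G2A MEF 2. Dlk1 was at 614, 210 and 32015 in WT and at 4164 and 7643 in G2A MEFs. The source of these transcripts was not tested.

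The third comparison tested whether the G2A effect on each synthetase differed between liver and MEFs. No member passed the threshold, while 1.34% of 10818 genes had an effect called higher in liver and 0.869% called lower in liver. Farsa came nearest, with a liver minus MEF difference of -0.75 on the log2 scale (SE 0.17, adjusted p = 0.0588 by the difference of both limma fits). It was followed by Rars (-0.73, SE 0.17, adjusted p = 0.0624), Lars2 (-0.68, SE 0.17, adjusted p = 0.0633) and Qars (-0.51, SE 0.13, adjusted p = 0.0713). Eprs was the only member with an unadjusted p under 0.05 in the other direction (0.45, SE 0.14, adjusted p = 0.0992), beside 13 members with a lower effect in liver. Over all genes the shares at that level were 11.5% with a higher and 12.1% with a lower effect in liver. A log2 fold change below 0 in liver and above 0 in MEFs was seen for 21 of 36 members, against 30.2% of genes, and the opposite for 2, against 30.4%. The median difference was -0.15 over the members and -0.015 over all genes.

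**Figure D5:**
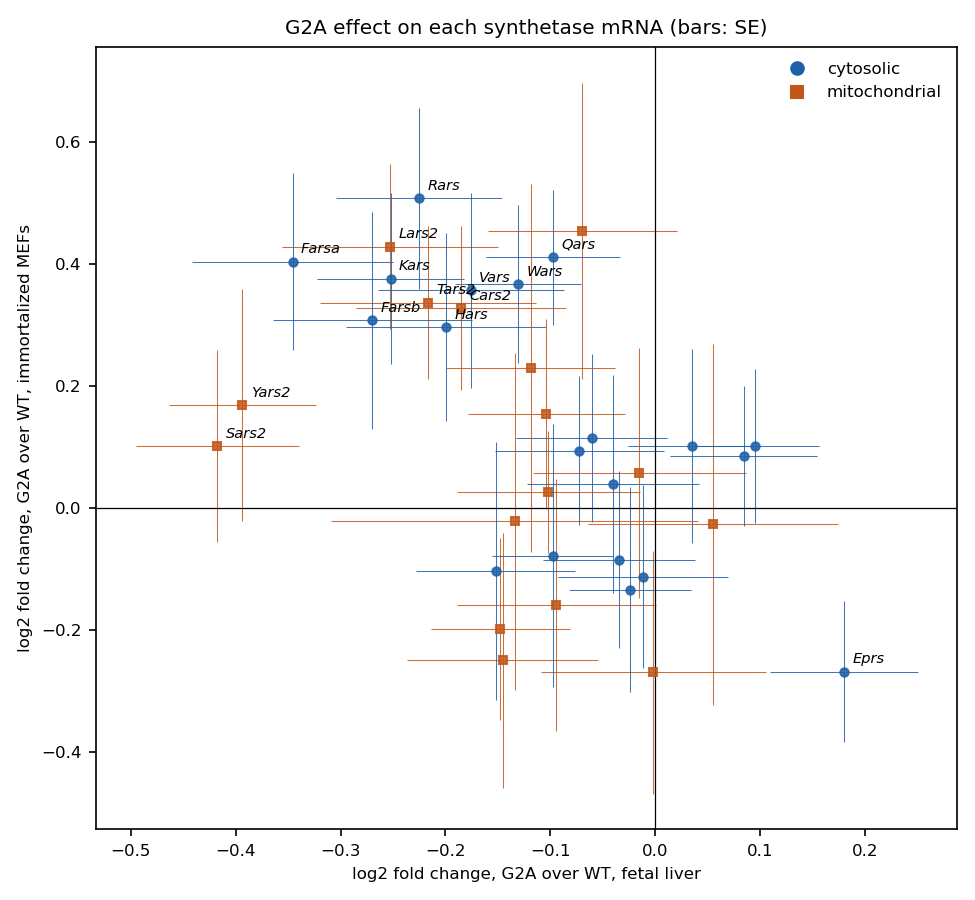
Log2 fold change of G2A against WT in MEFs plotted against that in liver for each of the 36 synthetases, cytosolic and mitochondrial members marked apart and bars showing the SE. In all, 21 members lie below 0 in liver and above 0 in MEFs, and Eprs and Pars2 lie in the opposite quadrant.

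Across the 36 members the log2 fold changes of both tissues had a Spearman correlation of -0.53 and a Pearson correlation of -0.50, given as a description, since the members share the same 11 libraries. Over all 10818 genes the values were -0.22 and -0.037. Without G2A liver 3, Farsa, Kars, Lars2, Rars and Tars2 passed the test of the difference, beside 8.76% of genes. Without WT MEF 3, 12 members passed, beside 30.1% of genes, and without WT MEF 2, 5 passed (Farsa, Farsb, Kars, Qars and Rars), beside 4.58% of genes. The counts of calls in this comparison thus turned on single libraries.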

How the data were processed

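Per the labels' protocols, total RNA was isolated with Trizol, sequenced by BGI, trimmed to reads of 50 bp and mapped to mm9 with TopHat. TopHat2 2.1.1 and Cufflinks 2.2.1 are named in the submitters' processing notes, which give mm10 beside mm9 as builds. The authors deposited liver values read here as FPKM, from the named tool and the values, since the header states no unit. The MEF signal the authors deposited is whole reads divided by a size factor per library (0.958 to 1.06, with 100% of values whole within 0.01). How genes were counted, on which annotation and with or without strand, is not given in the sources used here, so the 11 members whose exons overlap those of another gene are uncertain.

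Each tissue was fitted alone on log2(value + 1) with limma 3.58.1 (moderated test with a variance trend) in R 4.3.3, with Benjamini-Hochberg adjustment over all genes. Liver genes had at least 1 FPKM in at least 3 libraries (12938 genes), and MEF genes at least 10 normalized reads in at least 2 (13241 genes). All 36 members passed both filters. For the 10818 genes tested in both tissues, the liver log2 fold change minus that of MEFs was divided by the standard error of this difference (Satterthwaite degrees of freedom). With 3 against 3 or 3 against 2 libraries an exact two-sided permutation test cannot give less than 0.1, so none was run. Alternatives were edgeR 4.0.16 and DESeq2 1.42.0 on recovered MEF reads, other pseudocounts, filters and scalings, a replicate block and leaving out each library.

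Members and lists were chosen with earlier results of these data known. Values in every library are given for the 10 cytosolic and 6 mitochondrial members with the smallest p in each tissue, and up to 3 members of other lists are named by the same rule, with others of the stress response list named after their values were seen. The rule also selects 1 gene that is not reported here. Tested on simulated data with changes of 1 on the log2 scale, 89% of changed genes were recovered by limma for liver, 45% for MEFs and 60.5% by the test of the difference, with the changed genes drawn from those at higher levels. False calls, over both sizes of change simulated, were 9, 12 and 44 in turn, and 98 for DESeq2 and 11 for edgeR on MEF reads. Smaller changes were not simulated. The simulated noise was independent for each gene, without differences shared by many genes of a library, such as those of G2A liver 3 or WT MEF 3. These shares of recovery therefore need not hold for the measured data. In liver, Trib3 (1.89, adjusted p = 0.116 by limma) and Stc2 (1.18, adjusted p = 0.0811) changed by more than 1 and missed the threshold.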

Additional observations from a re-analysis of the deposited data

How the results depend on the processing

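In liver the named synthetases kept their direction and side of the threshold under 219 of 240 member settings and passed the threshold under 21. Calls of genes higher and lower were 3376 and 2681 with library weights and 1 and 0 without small RNA genes, and 1 gene was higher when the replicate number was added as a replicate block. Leaving out each liver gave 1 to 1604 genes higher, 1 to 1548 lower and 0 to 7 synthetases, the highest without G2A liver 3, and the weights gave 17. The medians then ran from -0.12 to -0.045 for cytosolic and from -0.17 to -0.084 for mitochondrial members. The cytosolic median was -0.0013 and the mitochondrial -0.19 under quantile normalization, against -0.020 over all genes. The cause of these differences was not tested.

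In MEFs 217 of 240 member settings kept direction and side, and 23 passed. Genes higher and lower, then synthetases, were 391, 644 and 3 by DESeq2 and 3149, 2975 and 17 with library weights, a choice made after seeing the data. Leaving out each MEF library gave 0 to 1550 genes higher, 0 to 1525 lower and 0 to 2 synthetases, the highest without WT MEF 3, with medians of 0.011 to 0.20 for cytosolic and 0.0099 to 0.15 for mitochondrial members. Quantile normalization gave a mitochondrial median of 0.14. With the replicate block, to which WT MEF 3 adds nothing for lack of a partner, 1891 genes were higher, 1816 lower and 4 synthetases passed (Qars, Rars, Wars and Vars2), with a mitochondrial median of 0.0099. The labels do not say that a number marks a pair, so the numbers were not taken to pair the samples. Same-numbered deviations from the group means correlated at 0.18, -0.099 and 0.099 in liver. WT livers 1 and 3 correlated best with their own number, and WT liver 2 with G2A liver 3 (0.13). With 3 livers per group these values cannot decide whether the numbers mark pairs. In MEFs the correlations (0.13 and -0.033) cannot judge it either, since deviations of 2 G2A samples from their mean are mirror images.

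For the difference between tissues, 6151 genes and 17 synthetases passed with library weights, 3690 and 14 with the replicate block, 29 genes without a filter and 19 without a variance trend. Leaving out each library gave 2 to 3260 genes and 0 to 12 synthetases: 3260 without WT MEF 3, 948 without G2A liver 3, 496 without WT MEF 2, 60 without WT liver 2, 50 without G2A liver 1, 45 without WT liver 3, 35 without G2A liver 2, 11 without WT MEF 1 and 2 without either G2A MEF. The liver depth is unknown, which gives no counting error there, and differences as small as these members' were not simulated.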
